A study of Mus musculus with 8 samples.

Results

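The 10 genes Cebpa, Cebpb, Cebpd, Cebpg, Pparg, Ppara, Ppard, Rxra, Klf15 and Zfp423 encode transcription factors, several of which make and maintain fat cells. They were taken by their symbols from a table of 18022 genes counted by RNA-seq in subcutaneous fat of 8 mice, and all 10 were found, each as 1 row. The 4 libraries labelled KO came from mice with an adipocyte deletion of Pkd1 (Pkd1adipo delta/delta), and the 4 labelled WT from mice with the floxed gene, Pkd1(flox/flox). Protein kinase D1 is called Pkd1 in this study, and its gene is listed as Prkd1. All mice were C57BL/6J, back-crossed 4 times, and each library was from its own mouse. None of the sources used here gives the promoter that drove the recombinase, or the sex, age and diet of the mice. A name such as KO3 stands for a library by its label and replicate number.

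In cultured preadipocytes, hormones of the differentiation cocktail first induce C/EBP beta and C/EBP delta, which turn on C/EBP alpha and PPAR gamma. C/EBP alpha and PPAR gamma then keep each other and the genes of lipid storage switched on. PPAR proteins bind DNA as partners of retinoid X receptors such as RXR alpha. C/EBP gamma lacks a strong activation domain and pairs with the other C/EBP proteins, KLF15 acts late in differentiation and in amino acid breakdown, and ZFP423 marks cells committed to the fat lineage and holds back the thermogenic programme in white fat.

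Some of these factors act on the genes of others, as C/EBP alpha and PPAR gamma do, and the start regions of 3 genes are shown. RefSeq start regions (GRCm38.p6), each from 250 bases before to 50 bases after a start, were matched for 9 of the 10 genes, all but Cebpd, with 13 regions in all. In the third of the Pparg regions, that of the fat-selective isoform, and in the Cebpa region, capitals mark TTNNGNAA, a loose form of the C/EBP site, on either strand. In the Klf15 region capitals mark CACGTG, the E-box bound by clock factors and other basic helix-loop-helix proteins. None of the marked runs overlapped another.
Pparg, start 3, chr6:115421816-115422115, plus strand: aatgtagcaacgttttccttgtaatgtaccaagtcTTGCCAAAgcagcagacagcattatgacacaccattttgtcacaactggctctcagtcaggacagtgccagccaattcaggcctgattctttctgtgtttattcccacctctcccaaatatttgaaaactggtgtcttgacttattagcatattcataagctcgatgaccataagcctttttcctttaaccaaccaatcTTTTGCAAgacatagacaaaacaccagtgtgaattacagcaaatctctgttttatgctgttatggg
Cebpa, chr7:35119043-35119342, plus strand: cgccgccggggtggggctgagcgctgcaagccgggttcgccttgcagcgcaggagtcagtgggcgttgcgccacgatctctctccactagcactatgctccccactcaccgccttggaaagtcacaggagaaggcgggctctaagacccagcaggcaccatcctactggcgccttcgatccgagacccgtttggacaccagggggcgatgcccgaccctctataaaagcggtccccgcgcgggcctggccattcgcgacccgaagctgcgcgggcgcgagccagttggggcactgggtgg
Klf15, chr6:90462326-90462625, plus strand: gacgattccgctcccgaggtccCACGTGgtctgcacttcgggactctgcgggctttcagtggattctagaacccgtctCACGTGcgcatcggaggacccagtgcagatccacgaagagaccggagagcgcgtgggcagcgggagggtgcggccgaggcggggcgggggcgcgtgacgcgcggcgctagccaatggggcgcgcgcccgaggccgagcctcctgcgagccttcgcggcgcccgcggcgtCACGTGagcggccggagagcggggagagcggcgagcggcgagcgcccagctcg
The third Pparg region held 2 matches, beginning 215 and 16 bases before the start, and 13.6% of all 32851 regions of the table held at least 2. The second Zfp423 region also held 2, the first Zfp423 region held 1, and the other 10 of the 13 held none. The Cebpa region held no match and so has no capitals, and 40.7% of all regions held at least 1. Runs that depart from TTNNGNAA, such as ttgcgcca in the Cebpa region, were not searched for. The lack of a match therefore does not show that the region lacks a C/EBP site. The Klf15 region held CACGTG at 3 places, beginning 228, 172 and 3 bases before the start. At least 3 such E-boxes were found in 29 regions of the table, or 0.0883%. The third Pparg region had a GC content of 40.3%, against 67.3% for Cebpa and 73.3% for Klf15. The read counts were made per gene, so they do not separate the starts of Pparg.

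The libraries held 2751020 to 2873457 reads when labelled KO and 2617755 to 2816661 when labelled WT. Prkd1 itself stood at 26.1 to 37.1 CPM (counts relative to the library's total, scaled by the TMM method) in libraries labelled KO and at 26.6 to 33.6 CPM in those labelled WT, so that the counts did not check the labels. None of the sources used here names the deleted exons. All 12 adipocyte markers were counted, with none at 0 in any library, and their sum was 23600 to 29990 CPM in libraries labelled KO and 24410 to 28390 CPM in those labelled WT. Some libraries stood apart. Summed skeletal muscle markers (24 genes) were at 4095, 2548 and 4490 CPM in KO1, KO2 and KO4 but at 563 CPM in KO3, against 181 to 730 CPM in libraries labelled WT, with Mylpf and Pvalb at 0 in some libraries. Liver markers (16 genes) were at 1135 CPM in KO2 and 395 to 505 CPM in the other libraries labelled KO, against 2185 CPM in WT1, 1901 CPM in WT4 and 356 to 474 CPM in WT2 and WT3, with Apoc3, Fga and Ahsg at 0 in some. Small intestine markers (4 genes) were at 81.4 to 98.5 CPM in libraries labelled KO, against 566 CPM in WT2 and 104 to 164 CPM in the others labelled WT, with Apoa4 and Vil1 at 0 in some libraries. In bulk tissue, fewer cells of a type and less RNA per cell cannot be told apart.

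None of the 10 factors differed between the labels beyond the spread between mice. Cebpa, the most abundant, and Pparg, the main regulator of the fat cell, had fold changes of 0.972 and 1.10 (libraries labelled KO over those labelled WT). The largest fold change was that of Klf15, at 1.19. In the test over 14556 genes, 0 of the 10 passed an adjusted p of 0.05 (edgeR quasi-likelihood test with Benjamini-Hochberg adjustment; adjusted p = 1 for each), beside 0% of all genes. Of the 10, 0 had an unadjusted p under 0.05, beside 4.49% of all genes. The labels did not overlap for 0 of the 10, against 2.92% of all genes. The log2 fold change was positive in 7 and negative in 3, and its median was 0.05 beside 0.00 over all genes. DESeq2 called 36 genes, or 0.247%, and the edgeR likelihood ratio test 34, or 0.234%, with 0 of the 10 among them in either. Without KO3, 50 genes passed, or 0.336% of those tested, again with 0 of the 10.

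**Figure D1:**
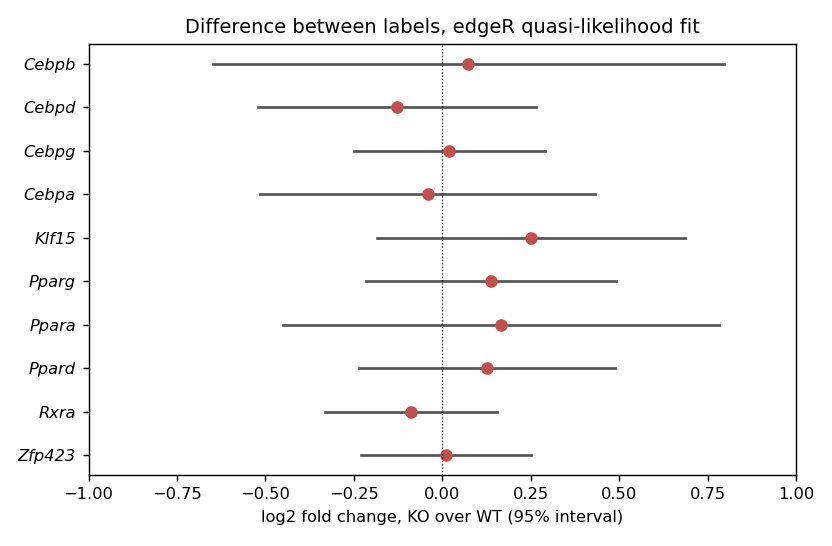
Log2 fold change of each factor, libraries labelled KO over libraries labelled WT (point), with its 95% interval (line), from edgeR's quasi-likelihood fit on 4 libraries a label. All 10 intervals cover 0, and the widest is that of Cebpb, from -0.65 to 0.80.

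The intervals say which sizes of difference these libraries leave possible. They were narrowest for Zfp423, from 0.853-fold to 1.19-fold, and Rxra, from 0.794-fold to 1.11-fold. For Cebpa the interval ran from 0.700-fold to 1.35-fold and for Pparg from 0.861-fold to 1.41-fold. It was wide for Ppara, from 0.731-fold to 1.72-fold, and for Cebpb, from 0.638-fold to 1.73-fold. A rise of 1.5 times lay inside the intervals of Cebpb, Ppara and Klf15 (0.880-fold to 1.61-fold), and a drop of that size inside that of Cebpb. In the authors' deposited table all 10 genes had an adjusted p of 1, with unadjusted p-values from 0.26 for Klf15 to 0.99 for Zfp423, where 2.42% of the 18022 genes listed had an adjusted p under 0.05.

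Compared per length of exon, the factors spanned a wide range of levels. Cebpa stood at 311 ± 81.9 CPM per kb in libraries labelled KO and 321 ± 90.7 CPM per kb in those labelled WT (SD, n = 4 each). Pparg came next, at 105 ± 18.5 and 95.8 ± 17.7 CPM per kb in the libraries labelled KO and WT, and then Rxra, at 35.7 ± 2.65 in libraries labelled KO and 38.1 ± 1.92 CPM per kb in those labelled WT. The 8 libraries of each of these 3 genes did not overlap those of the next. Klf15, Zfp423, Cebpb and Cebpg followed with 8-library means of 21, 18.5, 18.1 and 16.8 CPM per kb, and their libraries overlapped. Levels of different genes were not tested against each other. Ppara, Ppard and Cebpd were lowest, at 5.74, 5.26 and 5.18 CPM per kb, with overlapping libraries. The lengths were those of merged exons in GENCODE M21, not of the annotation behind the counts.

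**Figure D2:**
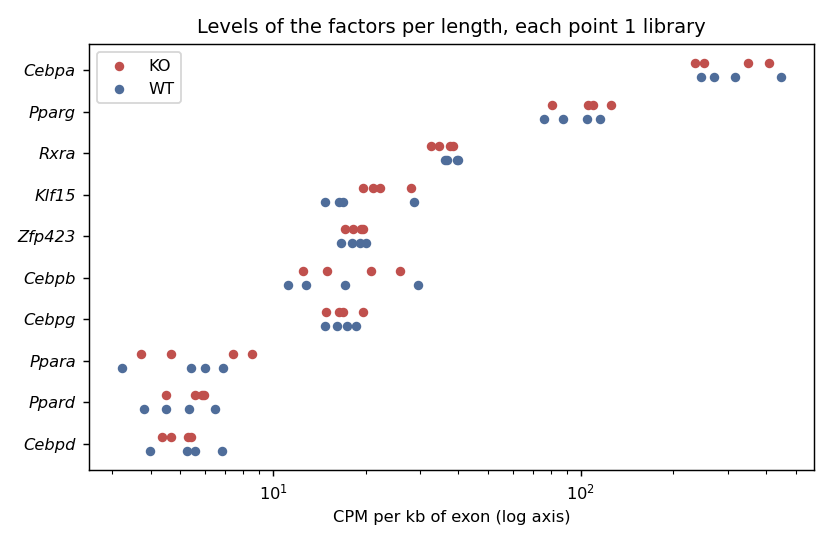
Level of each factor per kilobase of merged exon on a log axis, with each point 1 library and the libraries labelled KO drawn above those labelled WT. Cebpa, Pparg and Rxra each lie apart from the genes below them, while the other factors form 2 separate tiers, with overlap among the genes within each.

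Cebpb and Cebpd, the early factors, were low. Cebpb had 51, 91, 109 and 63 reads in KO1 to KO4 and 70, 112, 54 and 46 reads in WT1 to WT4, or 27.8 ± 8.98 CPM in libraries labelled KO and 26.6 ± 12.6 CPM in those labelled WT (SD, n = 4 each). It was high in KO3 and in WT2 and low in KO1 and WT4, so the labels overlapped throughout (log2 fold change 0.07 ± 0.32, SE). Cebpd had 54, 59, 46 and 49 reads in KO1 to KO4 and 57, 64, 55 and 41 reads in WT1 to WT4. Its level was 18.5 ± 1.88 CPM in libraries labelled KO and 20.3 ± 4.32 CPM in those labelled WT, with a log2 fold change of -0.13 ± 0.18. The libraries labelled KO lay within the range of those labelled WT. The SD of Cebpb over the 8 libraries was 0.50 on the log2 scale, where counting error alone gives 0.17. For Cebpd it was 0.23, close to the 0.20 that counting error alone gives. The kit in its standard form does not mark strand, and both genes overlap a gene on the opposite strand in GENCODE M21. Cebpb shares 312 exon bases with Tmem189, which had a log2 fold change of -0.02 ± 0.11, and Cebpd shares 562 with Spidr (listed as 2310008H04Rik), which had 0.00 ± 0.16. Without strand information, reads from the shared bases of such a pair cannot be told apart. The values of both factors are uncertain to that extent.

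Cebpg, the partner of the other C/EBP proteins, was steady. It stood at 83.5, 110.5, 94.9 and 91.99 CPM in KO1 to KO4 and at 104.6, 97.9, 82.9 and 90.5 CPM in WT1 to WT4. The log2 fold change was 0.02 ± 0.13 (SE), with the highest value in KO2 and the lowest in WT3.

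Cebpa, which maintains the fat cell state and insulin sensitivity, had 2500, 1809, 3034 and 1865 reads in KO1 to KO4 and 1761, 2972, 1994 and 2299 reads in WT1 to WT4. Its level was 821 ± 216 CPM in libraries labelled KO and 845 ± 239 CPM in those labelled WT, with a log2 fold change of -0.04 ± 0.22. The labels overlapped throughout, with KO1 and KO3 above KO2 and KO4, and WT2 above WT1, WT3 and WT4. The highest library was 1.90 times the lowest, and the SD over the 8 was 0.35 on the log2 scale, where counting error alone gives 0.03. Of 11494 genes with at least 10 CPM on average, 84.2% had a smaller SD.

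Pparg did not follow the order of Cebpa. It had 649, 1080, 878 and 908 reads in KO1 to KO4 and 702, 562, 867 and 934 reads in WT1 to WT4, or 311 ± 54.6 CPM in libraries labelled KO and 283 ± 52.3 CPM in those labelled WT. KO2 was the highest library and WT2 the lowest, where Cebpa was lowest in KO2 and highest in WT2. The log2 fold change was 0.14 ± 0.17 (SE). Rxra, the partner of the PPAR proteins on DNA, had 570, 518, 576 and 532 reads in KO1 to KO4 and 590, 496, 561 and 596 reads in WT1 to WT4. Its log2 fold change was -0.09 ± 0.11, and 2.94% of the 11494 genes had a smaller SD over the 8 libraries than its 0.10. Counting error alone gives 0.06 for Rxra. The median SD was 0.25 over all tested genes and 0.19 over those with more than 100 CPM on average, as Rxra had.

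**Figure D3:**
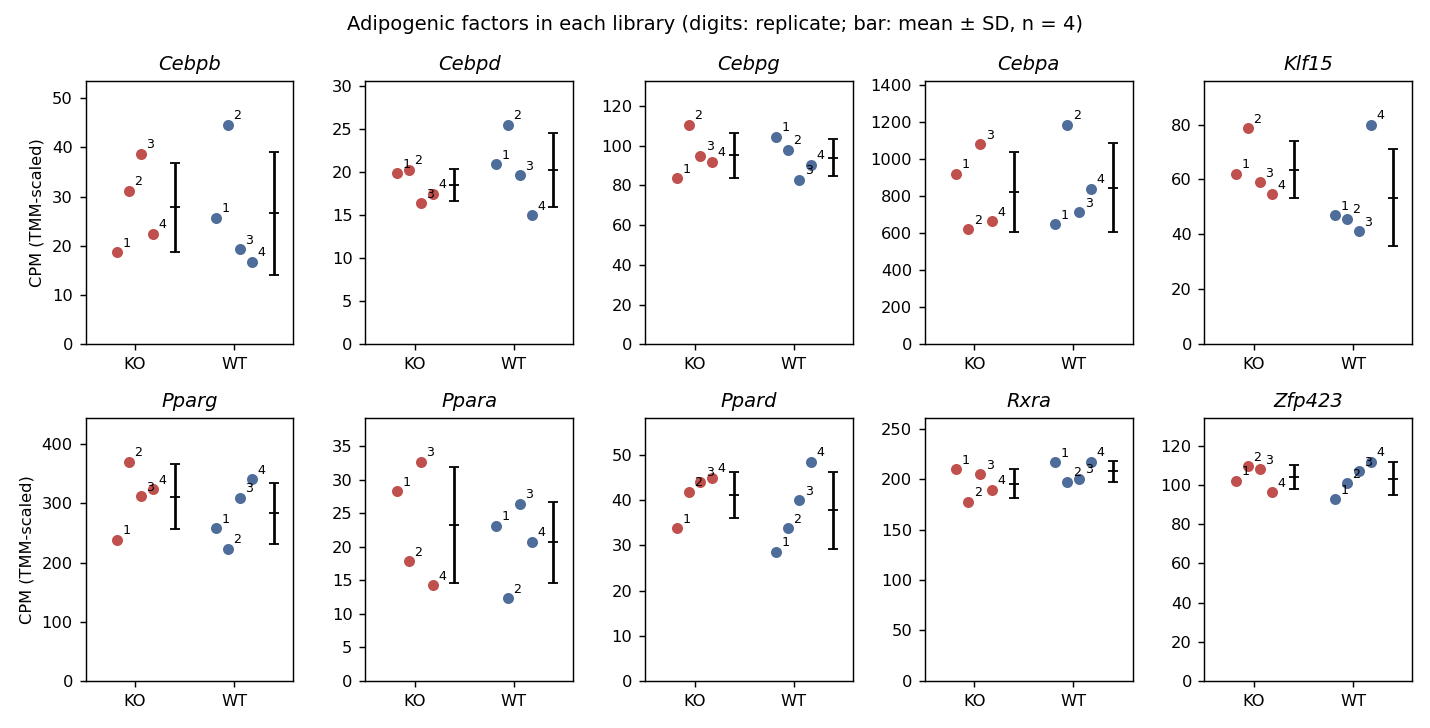
CPM of each factor in each library, with libraries labelled KO at the left and those labelled WT at the right of each panel, each axis starting at 0. Digits give the replicate number and bars the mean ± SD (n = 4), and the labels overlap in all 10 panels.

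Of the other PPAR genes, Ppara varied more from mouse to mouse than Ppard, with an SD over the 8 libraries of 0.47 against 0.25 on the log2 scale, where counting error alone gives 0.19 and 0.14. Ppara, which drives fatty acid oxidation and is abundant in liver, had 77, 52, 92 and 40 reads in KO1 to KO4 and 63, 31, 74 and 57 reads in WT1 to WT4. That is 23.3 ± 8.67 CPM in libraries labelled KO and 20.7 ± 6.02 CPM in those labelled WT, with a log2 fold change of 0.17 ± 0.28 (SE). Its low libraries were KO2 and KO4 and WT2, and its high ones KO1 and KO3. The libraries with high liver markers, KO2, WT1 and WT4, were not its highest, and the part of liver in its values was not tested. Ppard, a broadly expressed activator of oxidative genes, had 92, 122, 124 and 126 reads in KO1 to KO4 and 78, 85, 112 and 133 reads in WT1 to WT4. The log2 fold change was 0.12 ± 0.17 (SE), with KO1 the lowest library of its label and WT4 the highest of all.

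Klf15 had the largest difference of the 10, and 1 library, WT4, went against that difference. It had 169, 229, 166 and 153 reads in KO1 to KO4 and 128, 115, 115 and 219 reads in WT1 to WT4, or 63.6 ± 10.5 CPM in libraries labelled KO and 53.4 ± 17.8 CPM in those labelled WT. WT1, WT2 and WT3, at 41.1 to 47.0 CPM, lay below every library labelled KO, at 54.6 to 78.6 CPM, while WT4, at 79.9 CPM, lay above all of them. The log2 fold change was 0.25 ± 0.20 (SE; edgeR quasi-likelihood adjusted p = 1, unadjusted p = 0.24). Without WT4 it was 0.51, with an adjusted p of 1 and an unadjusted p under 0.05, as for 593 of the 14800 genes tested in that run. No other run with 1 library left out put any of the 10 factors under an unadjusted p of 0.05. Klf15 is also expressed in muscle and liver. KO3, with the lowest muscle sum of its label, had 59.0 CPM of Klf15, inside the range of the other libraries labelled KO. The highest values for Klf15, in KO2 and WT4, came from libraries with high liver markers, while WT1, whose liver sum was highest, had 47.0 CPM. With muscle markers as a covariate, the log2 fold change of Klf15 was 0.69, again with an adjusted p of 1 and an unadjusted p under 0.05. In that fit 489 of 14556 genes had an unadjusted p under 0.05. That covariate moves with the label, so this fit cannot separate muscle content from the label. The parts of muscle and of liver in the values were not tested.

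Zfp423, the marker of committed precursors, was the steadiest of the set. It had 278, 319, 304 and 270 reads in KO1 to KO4 and 253, 254, 300 and 307 reads in WT1 to WT4, with a log2 fold change of 0.01 ± 0.11 (SE). Of the 11494 genes, 2.39% had a smaller SD over the 8 libraries than its 0.09, and counting error alone gives 0.09 for Zfp423. Progenitor and fibroblast markers (18 genes) summed to 1617 to 2488 CPM in libraries labelled KO and to 1740 to 2088 CPM in those labelled WT (exact two-sided permutation p = 0.686).

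Across mice, WT4 held the highest or the lowest value of 6 of the 10 factors, WT2 of 5 and KO2 of 4. WT4 had the highest Ppard, Rxra, Klf15 and Zfp423 and the lowest Cebpb and Cebpd. For the highest value alone, the library was WT4 for 1175 of all 14556 tested genes, WT2 for 2770 and KO2 for 1809. The lowest library was not counted over all genes, so no share stands beside the counts of highest or lowest. WT2 had the highest Cebpa, Cebpb and Cebpd and the lowest Pparg and Ppara of the 8 libraries. WT2 also had the highest mean level of 18 immediate early genes, 0.63 above the 8-library mean on the log2 scale, where the libraries labelled KO lay between -0.16 and -0.06 and the others labelled WT between -0.26 and 0.12. Cebpb and Cebpd are themselves quickly induced by hormones and stress. WT2 also stood apart in small intestine markers, and the part of either in the values was not tested. Without WT2, the log2 fold changes were 0.16 for Cebpa, 0.43 for Cebpb, 0.00 for Cebpd, 0.04 for Pparg and -0.01 for Ppara, all with 0 genes called over the table.

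**Figure D4:**
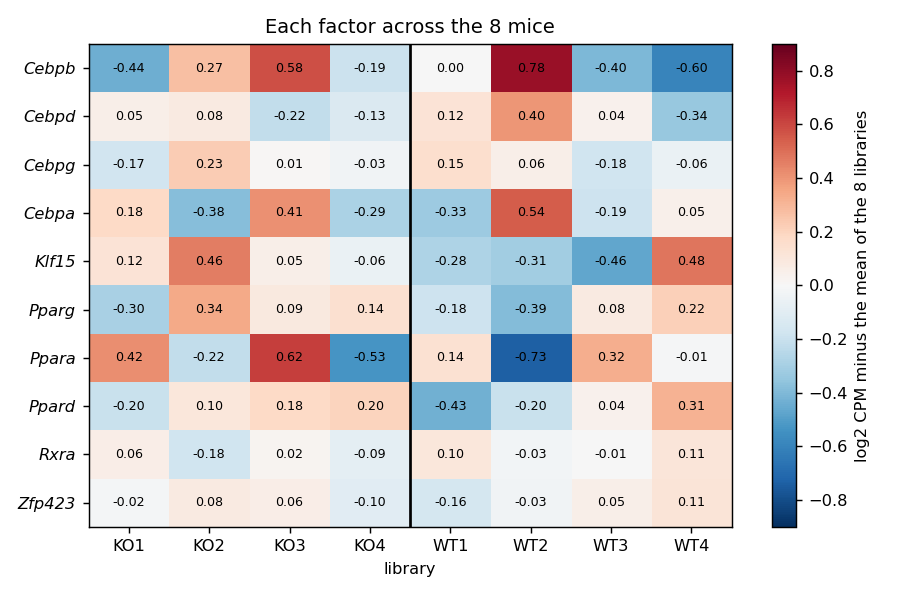
Log2 CPM of each factor minus its mean over the 8 libraries, libraries labelled KO at the left of the line and those labelled WT at the right. WT2 holds the extremes of Cebpb at 0.78 and Ppara at -0.73, and the rows of Rxra and Zfp423 are close to 0 throughout.

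The 3 factors with the largest SD over the 8 libraries were Cebpb, Ppara and Cebpa, and the genes most like each were found by the root mean square difference of centred log2 CPM over the 8 libraries, among 11493 genes with at least 10 CPM on average. Cebpa was followed closely by Tspo, a cholesterol-binding protein of the outer mitochondrial membrane, with a difference of 0.05, against a median of 0.38 over all genes compared. Tspo stood at 330, 214, 362 and 233 CPM in KO1 to KO4 and at 234, 390, 243 and 303 CPM in WT1 to WT4, high and low in the same libraries as Cebpa. Next were Bckdha, a subunit of the enzyme that commits branched-chain amino acids to breakdown, at 0.08, and Aldh2, the mitochondrial aldehyde dehydrogenase, at 0.10. Ppara was most like Acss3, an acyl-CoA synthetase of mitochondria, at 0.19, then 1700019E19Rik at 0.22 and the pseudogene Pisd-ps2 at 0.23, against a median of 0.49. Acss3 was highest in KO3 (87.1 CPM) and lowest in WT2 (36.2 CPM), as Ppara was. Cebpb was most like Myh11, the smooth muscle myosin, at 0.23, Nrarp, a Notch feedback regulator, and Trim65, both at 0.24, against a median of 0.51. These genes were chosen for their likeness, so it is a description of these 8 mice.

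**Figure D5:**
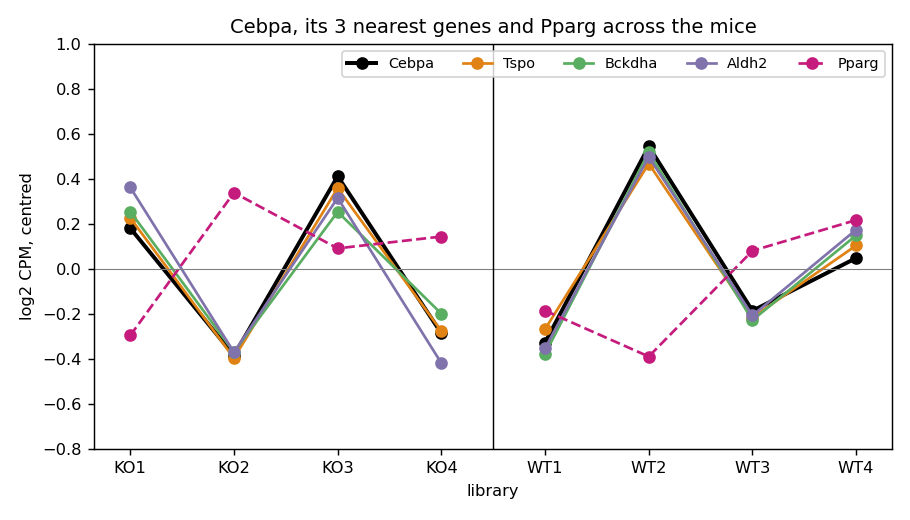
Centred log2 CPM of Cebpa, of its 3 most similar genes and of Pparg (dashed) in each library, with libraries labelled KO left of the line. Tspo, Bckdha and Aldh2 follow Cebpa, while Pparg is low in KO1 and WT2, where Cebpa is high, and high in KO2, where Cebpa is low.

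Partners and coregulators of the factors gave no calls. Of 31 tested genes among other regulators of adipogenesis, 0 passed in either direction, 23 were positive and 8 negative, and the median log2 fold change was 0.08. The abundant ones were Srebf1, which drives lipid synthesis, at 425 ± 43.0 CPM in libraries labelled KO and 415 ± 104 CPM in those labelled WT, Ebf1, a factor of fat and B cells, at 383 ± 86.7 and 320 ± 57.4 CPM, and Nr3c1, the glucocorticoid receptor, at 218 ± 32.5 and 205 ± 25.7 CPM. Rora, a receptor of the clock, and Klf3, which represses adipogenesis, had the smallest p of the list, with log2 fold changes of 0.35 ± 0.18 and 0.25 ± 0.14 (SE; unadjusted p of 0.072 and 0.085). Rora had 99.1 CPM in WT2 and 155 to 196 CPM in the other libraries labelled WT. Of 20 PPAR coregulators, 0 passed, 17 were positive and 3 negative, with a median of 0.09. Lpin1, which acts both as a coactivator and in triglyceride synthesis, had 0.22 ± 0.15, the corepressor Ncor1 had 0.10 ± 0.13, Tbl1x, a subunit of the corepressor complex, had 0.05 ± 0.14, and the coactivator Ncoa1 had 0.26 ± 0.13.

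Target genes of the factors were likewise spread around 0. Of 25 tested PPAR gamma targets of fat, 0 passed, 17 were positive and 8 negative, and the median log2 fold change was 0.08. Fabp4, the fatty acid carrier, Lpl, the lipoprotein lipase, and Plin4, a lipid droplet coat protein, had 0.10 ± 0.16, -0.01 ± 0.26 and 0.10 ± 0.16 (SE). Slc27a1, a fatty acid transporter, had 0.40 ± 0.23. Acaa1b, a peroxisomal thiolase, had -0.54 ± 0.17 (edgeR quasi-likelihood adjusted p = 1, unadjusted p = 0.0069). It had 44.9 to 53.1 CPM in libraries labelled KO and 58.1 to 99.6 CPM in those labelled WT. Its labels did not overlap, as for 1 of the 25 genes of its list and 2.92% of all tested genes, and without WT4, its highest library, the log2 fold change of Acaa1b was -0.33. Of 23 targets of PPAR alpha and PPAR delta, 0 passed, 12 were positive and 11 negative, with a median of 0.02. Plin2, a lipid droplet coat protein, had -0.12 ± 0.20, Angptl4, an inhibitor of lipoprotein lipase, had -0.28 ± 0.41, and Acaa1a -0.19 ± 0.12. Cpt1b, the muscle form of the carnitine transferase that feeds fatty acids to mitochondria, had 0.62 ± 0.23 (adjusted p = 1) and stood at 15.5 to 27.0 CPM in libraries labelled KO and 9.54 to 17.2 CPM in those labelled WT. Without KO3, its highest library, the log2 fold change of Cpt1b was 0.42. The value was 0.84 with muscle markers as a covariate, which moves with the label.

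KO1, KO3 and WT2, the 3 libraries with the most Cebpa, also had the highest sums of adipocyte markers, at 29990 CPM in KO1, 27350 CPM in KO3 and 28390 CPM in WT2. Of all tested genes, 45.3% were highest in 1 of these 3. The share was 87.0% (20 of 23) for the targets of PPAR alpha and PPAR delta, 80.0% (4 of 5) for KLF15 targets, 72.2% (13 of 18) for immediate early genes and 60.0% (15 of 25) for PPAR gamma targets. The 13 immediate early genes were all highest in WT2, with 0 in KO1 and 0 in KO3. The 20 targets of PPAR alpha and PPAR delta were divided as 5, 8 and 7 in KO1, KO3 and WT2. It was 53.3% for C/EBP targets, 51.6% for other regulators, 40.0% for glucocorticoid response genes and 35.0% for PPAR coregulators. These libraries were picked after the values of Cebpa were seen, so the shares are a description, and the part of fat cell content in them was not tested.

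Of 15 tested C/EBP targets, 0 passed, 6 were positive and 9 negative, and the median log2 fold change was -0.07. The median was 0.04 with muscle markers as a covariate and ran from -0.15 without KO3 to -0.01 without WT4. Scd1, the stearoyl-CoA desaturase, had -0.01 ± 0.16 and Lep, the satiety hormone leptin, -0.47 ± 0.33 (SE). The 2 members with the smallest p were acute-phase genes, Serpina3n at -0.48 ± 0.21 and Hp, haptoglobin, at -0.39 ± 0.18 (unadjusted p of 0.036 and 0.045, adjusted p = 1 for both in the quasi-likelihood test). Hp had 1035, 800, 747 and 1285 CPM in KO1 to KO4 and 1294, 1427, 1097 and 1260 CPM in WT1 to WT4, so that the libraries overlapped through KO4. The mean level of the list, centred over the 8 libraries, was -0.09 to -0.05 in libraries labelled KO and 0.05 to 0.11 in those labelled WT on the log2 scale. In the means of all the other pathway lists the labels overlapped, and the separation in this list was not tested. Acute-phase genes are also made in liver, whose markers were high in KO2, WT1 and WT4. Serpina3n, at 319 CPM in WT1 and 227 CPM in WT4, was at 289 CPM in WT3, where the liver sum was the lowest of the 8. The part of liver in these values was not tested.

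Of 5 tested KLF15 targets, 0 passed, 3 were positive and 2 negative, with a median of 0.01. Aldh6a1, of valine breakdown, had 0.05 ± 0.14, Slc2a4, the insulin-regulated glucose transporter, 0.01 ± 0.14, Gpt, alanine aminotransferase, -0.34 ± 0.17 and Bcat2, the first enzyme of branched-chain amino acid breakdown, 0.25 ± 0.26. Among 15 tested glucocorticoid response genes, a hormone that induces both Klf15 and Cebpd, 0 passed, 10 were positive and 5 negative, with a median of 0.12, which was -0.05 with muscle markers as a covariate. Zbtb16 had 0.13 ± 0.17, Tsc22d3 -0.01 ± 0.25, Cdkn1a, a cell cycle inhibitor, -0.78 ± 0.36 and Fam107a 1.65 ± 0.62, the last at 10 ± 8.35 CPM in libraries labelled KO and 3.18 ± 1.39 CPM in those labelled WT. Of 18 immediate early genes, 0 passed, 1 was positive and 17 negative, with a median of -0.22. With 1 library left out the median ran from -0.32 without KO2 to -0.07 without WT2. In 13 of the 18 the highest library was WT2. Junb, at 20.3 to 28.9 CPM in libraries labelled KO, was at 64.9 CPM in WT2 and 27.2 to 33.6 CPM in the others labelled WT, and Klf6, Jund, Jun and Btg2 had -0.09 ± 0.23, -0.12 ± 0.23, -0.19 ± 0.17 and -0.41 ± 0.18.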

How the data were processed

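Per the labels' protocols, poly(A) RNA of subcutaneous fat from 8 mice was sequenced from NEBNext Ultra libraries, a kit whose standard form carries no strand information. FastQC, Bowtie2, edgeR and the build mm9 appear in the submitters' processing notes, without role or version. How reads were assigned to genes was not stated in the sources used here. The deposited files were a table of unnormalised counts for each Ensembl gene and the authors' own comparison of the labels, with log2 fold changes, log2 mean CPM, p-values and adjusted p-values. Groups and replicate numbers came from the sample titles, and columns were matched by mouse label. The counts held no sign of a library deposited in duplicate (the chi-square per gene of 2 libraries of 1 label was at least 4.45), and depth was 2617755 to 2873457 reads.

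Libraries labelled KO were tested against those labelled WT in R 4.3.3 with edgeR 4.0.16, by a robust quasi-likelihood fit after TMM scaling. Its filterByExpr kept 14556 of 18022 genes, no term but the label was used, and p-values were adjusted by Benjamini-Hochberg, with a threshold of 0.05. The SE is the log2 fold change divided by the square root of F, and intervals are 95%. Counting error is the mean of 1 over the root of the read count, on the log2 scale. For marker sums, the labels were permuted exactly, two-sided, on log2 of CPM plus 0.5. Where nothing else is said, genes were named by rule: the factors, the 3 most abundant genes and the 2 with the smallest p of each list, and the 3 genes most like each of the 3 most variable factors. Of these, 2 list genes are not reported here. Factors and lists were chosen with earlier results of these data known. The code was tested on simulated counts. Alternatives were other scalings and filters, DESeq2 1.42.0, edgeR's likelihood ratio and exact tests, limma-voom (limma 3.58.1), no robust option, a threshold of 0.1, a block for the replicate number, a covariate of muscle markers, and leaving out each library. Start regions came from RefSeq (GRCm38.p6), lengths and overlaps from GENCODE M21.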

Additional observations from a re-analysis of the deposited data

Results flagged for a closer look

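In groups of 4 libraries, a library was singled out where its gap to its nearest neighbour, over the group's range, passed Dixon's 95% value. Of 136 groups examined, 12 had such a library, where chance gives about 1 in 20, or 6.8. Among the factors there was 1, Klf15 in WT4, at 79.9 CPM against 41.1 to 47.0 CPM in the other libraries labelled WT. Libraries labelled KO stood apart for Rora (167.7 CPM in KO1, 205.3 to 209.4 in the others), Acaa1a (102.3 CPM in KO1, 82.4 to 85.7 in the others), Klf6 (246.5 CPM in KO2, 117.0 to 136.9 in the others) and Trim65 (11.04 CPM in KO1, 15.3 to 16.1 in the others). Libraries labelled WT stood apart for Acaa1b (99.6 CPM in WT4, 58.1 to 64.2 in the others), Junb (64.9 CPM in WT2, 27.2 to 33.6 in the others) and Nrarp (35.4 CPM in WT2, 17.9 to 19.1 in the others).

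Among marker sums, liver markers were at 1135 CPM in KO2, against 395 to 505 CPM in the other libraries labelled KO, and brain and nerve markers at 771 CPM in KO1, against 277 to 340 CPM. Small intestine markers were at 566 CPM in WT2, against 104 to 164 CPM in the other libraries labelled WT, and the 2 mammary epithelial and mesothelial markers in the table, Krt19 and Lrrn4, at 13.5 CPM in WT2, against 1.79 to 3.28 CPM.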

How the results depend on the processing

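None of the 10 factors passed under any alternative run, including each library left out. The number of genes called over the table was 0 in the main test, with 653 at an unadjusted p under 0.05. It was 36 in DESeq2, 34 in edgeR's likelihood ratio test and 436 in an exact test with 1 common dispersion. That exact test gives all genes the same dispersion, whatever the spread of each gene. Its 436 calls are 2.42% of 18022 genes, the same number as in the authors' deposited table. Among them were 4 pathway genes (Cdkn1a, Fam107a, Fos and Hpd, the last pair named after their values were seen). Hpd was not kept by the filter of the main test. With 1 library left out of the main test, the number of genes called was 0 to 50, the 50 without KO3. With skeletal muscle markers as a covariate, which moves with the label, log2 fold changes turned sign for Cebpa (0.43), Lpin1 (-0.032), Angptl4 (0.006), Scd1 (0.11) and Jund (0.43), and Klf15 stood at 0.69, Cebpb at 0.55 and Ppara at 0.36, each with an adjusted p of 1. List medians were 0.28 for other regulators, 0.14 for targets of PPAR alpha and PPAR delta, 0.04 for C/EBP targets, 0.23 for KLF15 targets and -0.05 for glucocorticoid response genes. With 1 library left out, medians turned for KLF15 targets (-0.12 to 0.09), targets of PPAR alpha and PPAR delta (-0.06 to 0.10) and PPAR gamma targets (-0.003 to 0.10). Limma-voom turned Zfp423 (-0.017), Lpl (0.00) and Slc2a4 (-0.005), and put Cebpb at 0.34 and Ppara at 0.018, and upper quartile scaling turned Slc2a4 (-0.001). The cause was not tested in any of these. With 1 library left out, signs turned for Cebpa (-0.20 to 0.16), Cebpb (-0.13 to 0.43), Cebpg (-0.061 to 0.079), Ppara (-0.044 to 0.34), Zfp423 (-0.038 to 0.05), Aldh6a1 (-0.015 to 0.13), Jund (-0.29 to 0.13), Klf6 (-0.39 to 0.028), Lpl (-0.19 to 0.13), Plin4 (-0.026 to 0.18), Scd1 (-0.096 to 0.043), Slc2a4 (-0.12 to 0.072), Srebf1 (-0.12 to 0.15), Tbl1x (-0.069 to 0.13), Tsc22d3 (-0.30 to 0.16) and Zbtb16 (-0.048 to 0.25). Klf15 ran from 0.13 to 0.51. The log2 difference of marker sums ran from -0.055 to 0.06 for adipocyte, -0.022 to 0.19 for progenitor, -0.17 to 0.008 for macrophage, -0.069 to 0.42 for brain and nerve, 2.22 to 3.25 for skeletal muscle (exact p = 0.0571 with all libraries and 0.0286 without KO3, the smallest that 3 against 4 can give) and -1.40 to -0.59 for small intestine markers (exact p = 0.0286 with all libraries and up to 0.0857 without 1).

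Libraries that share a replicate number did not deviate together, with correlations of their deviations from the label means of -0.14, -0.29, -0.19 and -0.27. With the replicate number as a block, 0 genes were called and the log2 fold change of Klf15 was 0.29. Depth limits Cebpd, Ppara and Cebpb most, at 31 to 112 reads a library.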

Other observations

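Ratios of reads within a library do not depend on scaling. There were 3.85, 1.68, 3.46 and 2.05 Cebpa reads to each Pparg read in KO1 to KO4, and 2.51, 5.29, 2.30 and 2.46 in WT1 to WT4. The mean was 2.76 ± 1.06 in libraries labelled KO and 3.14 ± 1.44 in those labelled WT (SD, n = 4 each), so the labels overlapped and KO2 and WT2 lay at the ends. Pparg reads to each Ppara read numbered 8.43, 20.8, 9.54 and 22.7 in KO1 to KO4, and 11.1, 18.1, 11.7 and 16.4 in WT1 to WT4. KO2 and KO4 had the highest of these ratios, and WT2, highest in Cebpa and lowest in Ppara, came next at 18.1. Ppara is the divisor, so a low Ppara raises the ratio by itself. Lpl stood at 4293, 7373, 4521 and 8347 CPM in KO1 to KO4 and at 7925, 3989, 7388 and 5387 CPM in WT1 to WT4, so that KO1, KO3 and WT2, high in Cebpa, were its 3 lowest libraries. Fasn, the fatty acid synthase, stood at 1466, 4397, 1940 and 6493 CPM in KO1 to KO4 and at 2527, 2728, 5362 and 4003 CPM in WT1 to WT4, so that KO1 and KO3 were also its lowest libraries.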
